A study of Mus musculus with 18 samples.

Results

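The regions described here are the places where acetylation of histone H3 at lysine 9 (H3K9ac) was listed as different between T cell acute lymphoblastic leukaemia (T-ALL) and normal CD4+ CD8+ double-positive (DP) thymocytes of the mouse. All 1878 rows of the authors' deposited H3K9ac list were taken, out of 60531 rows in the 4 lists of the series. The list compares 2 T-ALL H3K9ac libraries with 2 DP H3K9ac libraries. The T-ALL cells are tumours that overexpress Notch1-IC, the intracellular, active form of the Notch1 receptor, and the DP cells come from normal thymus. The labels give no age, strain, promoter or vector for the Notch1-IC tumours, and do not say whether animals were pooled or whether the replicates are separate tumours. Chromatin was fixed in 1% formaldehyde for 10 min and cut to mononucleosomes with micrococcal nuclease before immunoprecipitation. The other lists give H3K4me3 and H3K27me3 regions from the same comparison and Notch1 peaks in T-ALL, among 18 libraries in all.

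H3K9ac is placed by acetyltransferases of the Gcn5 and PCAF family, among others, and removed by histone deacetylases. It marks the nucleosomes around active transcription start sites and many enhancers, where it often lies beside H3K4me3, a mark of active promoters. H3K27me3, laid down by Polycomb repressive complex 2, marks silenced genes. DP thymocytes are the stage at which T cell precursors express both CD4 and CD8 and rearrange the T cell receptor alpha chain. Sustained Notch1 signalling can drive T-ALL.

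Each region has a chromosome, a start, an end and a display colour, green or red. No header says which colour is the higher one in T-ALL, so the colours are used here as names only and no region is described as gained or lost. The deposited score is 1000 in every row and carries no measurement. No row holds a value per library, so depth is unknown, and neither a spread between replicates nor a test over samples can be given. Intervals below are 95% Clopper-Pearson intervals and cover counting error only, because neighbouring regions are not independent. The material is bulk chromatin, in which fewer cells carrying a mark and less of the mark in every cell cannot be told apart. Coordinates are on mm9, the build named in the submitters' processing notes, and regions were not assigned to genes because the gene table used here is on GRCm38.

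The list was evenly split between the colours, and the regions were narrow. There were 952 green regions and 926 red ones. Green regions covered 0.649 Mb and red regions 0.660 Mb. The median width was 625 bp in each colour, with quartiles of 525 and 750 bp for green and 525 and 800 bp for red. A width of exactly 500 bp was the most common single value, in 388 regions (20.7%), and 18 regions were narrower, 16 of them red. The colours parted at the broad end. Widths of 1000 bp or more were found in 92 red regions (9.94%, 8.08 to 12.0) and in 59 green regions (6.20%, 4.75 to 7.92). In the H3K4me3 list on the same chromosomes the broad class was mostly green, at 20.9% of green and 8.02% of red regions.

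The broadest H3K9ac region of all was red and 3675 bp wide, at chr4:94716626-94720300. It held 2 red H3K4me3 regions over 1375 bp, 37.4% of its length. The next red ones were 2925 bp at chr17:34766251-34769175, 2600 bp at chr4:132641676-132644275, 2575 bp at chr11:68911626-68914200 and 2450 bp at chr11:69222851-69225300. These 5 had no common H3K4me3 state. The region on chromosome 17 held 2 green and 1 red H3K4me3 region, the one at 68911626 shared 700 bp with a green one, and the other two shared no base with H3K4me3. Of the latter, the one at 69222851 shared 1050 bp with a Notch1 peak and the one at 132641676 touched a peak over 25 bp.

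The 5 broadest green regions all met green H3K4me3 and none met red. The broadest, 3125 bp at chr3:106287326-106290450, and the fifth, 2150 bp at chr2:26371126-26373275, lay wholly within a single green H3K4me3 region. The region of 2625 bp at chr11:11588476-11591100 met 4 green H3K4me3 regions that together covered 90.5% of it, the only H3K9ac region to meet as many as 4. At chr11:87568926-87571750 (2825 bp) and chr9:69606701-69609425 (2725 bp) the cover was lower, 36.3% and 22.9%. The region on chromosome 9 also shared 2700 bp with a red H3K27me3 region and 875 bp with a Notch1 peak.

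The list held regions on 11 autosomes only, and the balance of the colours differed from one to another. Chromosomes 5, 8, 10, 12, 13, 14, 15, 18, X and Y held none, although 8025 H3K4me3 regions (37.5% of that list) lie on those 10 chromosomes. Why the list stops there was not tested, and all comparisons with other lists below use the 11 chromosomes. On them there were 10.2 to 16.2 H3K9ac regions for every 100 H3K4me3 regions. Per Mb, the density ran from 0.894 on chromosome 3 to 2.45 on chromosome 11.

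The green share was lowest on chromosome 19, where 29 regions were green and 72 red (28.7%, 20.1 to 38.6). Chromosomes 7 (38.3%, 32.0 to 45.0) and 11 (41.9%, 36.2 to 47.8) also had intervals below 50%. Chromosomes 1 (62.1%), 2 (57.3%), 3 (64.3%) and 6 (59.5%) had intervals above 50%, and the other four spanned it. In the H3K4me3 list the green share ran from 41.6% on chromosome 4 to 58.4% on chromosome 3. On chromosome 19 it was 48.4% and on chromosome 7 it was 47.6%.

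**Figure D1:**
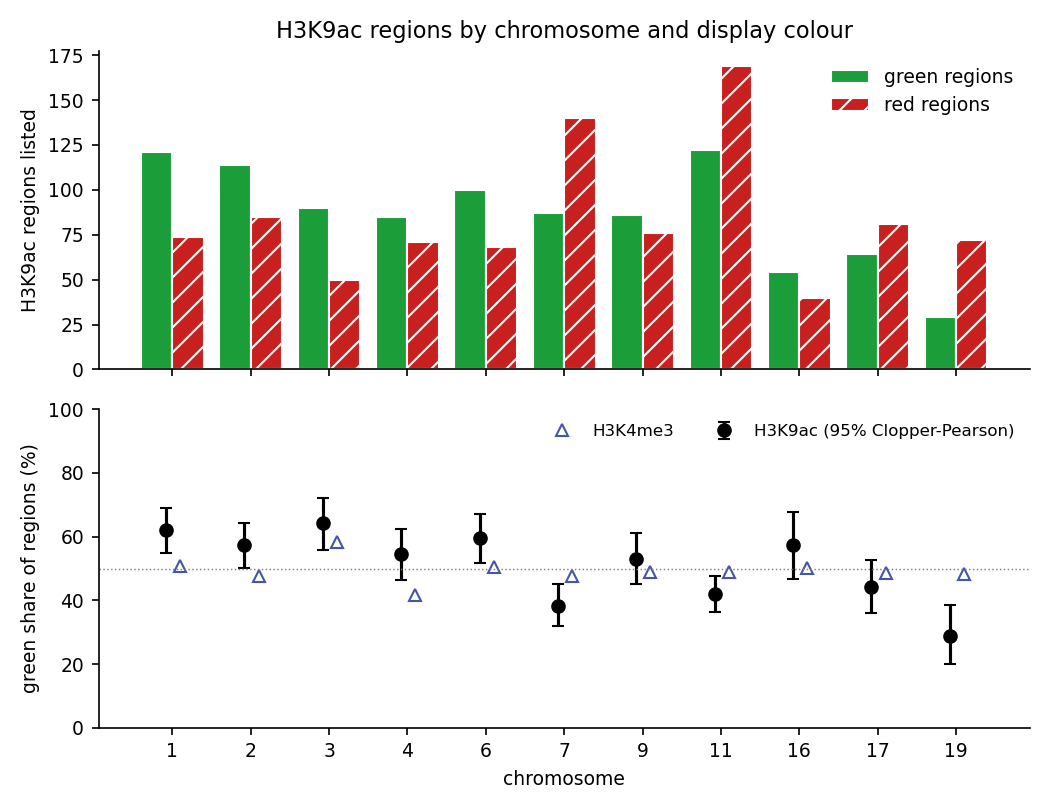
Number of green and red H3K9ac regions on each of the 11 chromosomes in the list (upper panel), and the green share of H3K9ac regions with its 95% Clopper-Pearson interval beside the green share of H3K4me3 regions (lower panel, percent; the dotted line is at 50%). Chromosome 19 has the lowest H3K9ac green share, 28.7%, where H3K4me3 stands at 48.4%.

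Of the 72 red regions on chromosome 19, 25 stood in a single stretch, and the others lay outside it. From 5609451 to 9041275, over 3.43 Mb, 25 H3K9ac regions in a row were red, the longest run of a colour in the list. The same stretch held 74 green and 59 red H3K4me3 regions, so H3K4me3 had both colours there. Of the 25 red H3K9ac regions, 19 met an H3K4me3 region. A second red run of 11 on that chromosome, from 47035726 to 54019200, met H3K4me3 at 2 regions only. The longest green run held 14 regions in 0.942 Mb on chromosome 9, from 44134926 to 45077150. All 14 met H3K4me3, and the stretch held 35 green and 11 red H3K4me3 regions. A red run of 13 regions on chromosome 7, from 25688401 to 28377950, stood among 32 green and 31 red H3K4me3 regions. Over the whole list 74.8% of green and 62.5% of red H3K9ac regions met H3K4me3. Of all neighbouring H3K9ac pairs, 60.4% shared a colour, and whether runs of these lengths exceed what that share would give was not tested.

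Neighbouring H3K9ac regions mostly had the same colour when they were close. The gap between neighbours was 178.6 kb in the median, with quartiles of 32.6 and 681.1 kb. Among the 178 pairs at most 1 kb apart, 153 shared a colour (86.0%, 80.0 to 90.7), 77 of them green with green and 76 red with red. The share was 80.4% (70.9 to 88.0) at gaps of 1 to 5 kb, 71.8% (62.4 to 80.0) at 5 to 20 kb and 63.2% (58.1 to 68.0) at 20 to 100 kb. Beyond 100 kb it was near 50%, at 52.8% (48.5 to 57.0) up to 500 kb. At short range H3K4me3 neighbours shared a colour at a lower rate. Of 2677 neighbouring H3K4me3 pairs at most 1 kb apart, 1359 shared a colour (50.8%, 48.9 to 52.7), and the interval does not reach that of H3K9ac. These H3K4me3 pairs were skewed to green, with 1077 green with green, 282 red with red and 1318 mixed. Within 1 kb the 2 marks are thus compared at unlike colour mixes. At 1 to 5 kb the H3K4me3 share was 51.1% (48.3 to 53.9), with 316 green with green, 313 red with red and 602 mixed pairs. At every gap class from 5 kb upward the intervals of the 2 marks overlapped. No test was made of these differences, since pairs along a chromosome are not replicates.

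**Figure D2:**
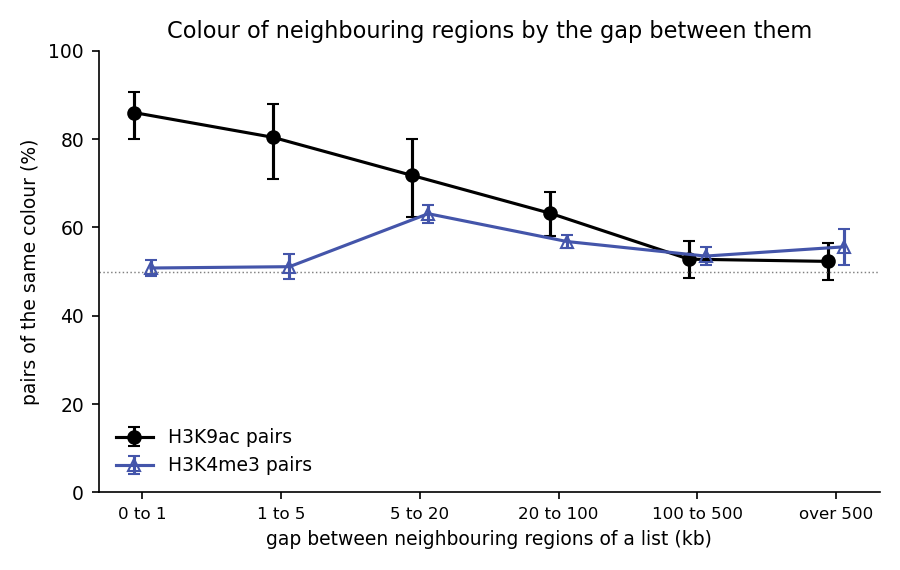
Share of neighbouring regions with the same colour (percent, with 95% Clopper-Pearson intervals) by the gap between them in kb, for H3K9ac and for H3K4me3 on the same 11 chromosomes. H3K9ac pairs go from 86.0% within 1 kb to 52.8% at 100 to 500 kb, while H3K4me3 pairs within 1 kb stand at 50.8%.

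Built from regions of a colour at most 5 kb apart, 85 green and 95 red clusters held 2 or more regions, with 195 green (20.5%) and 212 red regions (22.9%) in them. Only 4 clusters held 5 or more. In all 4 no region of the other colour, no H3K27me3 region and no Notch1 peak lay within the cluster. H3K27me3 covers only 0.842% of the span and Notch1 peaks 0.438%, so their absence from such short stretches says little. A Notch1 peak stood just outside the red cluster, 8300 to 8800 bp from its centre.

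The largest, green, held 8 regions over 12125 bp at chr6:41496401-41508525. Its first 3 regions and its last one met green H3K4me3, and the 4 between them met none. The first, 975 bp wide, and the second, 525 bp wide, were wholly covered by a green H3K4me3 region that began before the cluster. A further green cluster of 4 regions lay on the same chromosome at 41005676 to 41013125. Its broadest region was 2050 bp wide, and all 4 met green H3K4me3.

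The green cluster of 5 at chr11:11584851-11593150 had mixed H3K4me3 along its length. Its first region, 750 bp wide, met no H3K4me3, its second shared 25 bp with a red H3K4me3 region, and the last 3 met green ones over 550, 2375 and 675 bp. The green cluster of 5 at chr9:96844326-96854675 began with 3 regions on green H3K4me3 and ended with 2, of 975 and 500 bp, that met none.

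The red cluster of 5, at chr11:68902251-68914200, had green H3K4me3 at its ends and none between. Its first region shared 50 bp and its last 700 bp with green H3K4me3 regions, and the 3 middle regions, 825, 1525 and 1050 bp wide, met no H3K4me3. Clusters of 4 red regions were further removed from H3K4me3 in places. At chr19:53495876-53500250, inside the second run on chromosome 19, 4 red regions covering 3825 bp of 4375 bp met no H3K4me3 and no other list. At chr6:71274426-71279125 all 4 red regions instead met green H3K4me3.

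**Figure D3:**
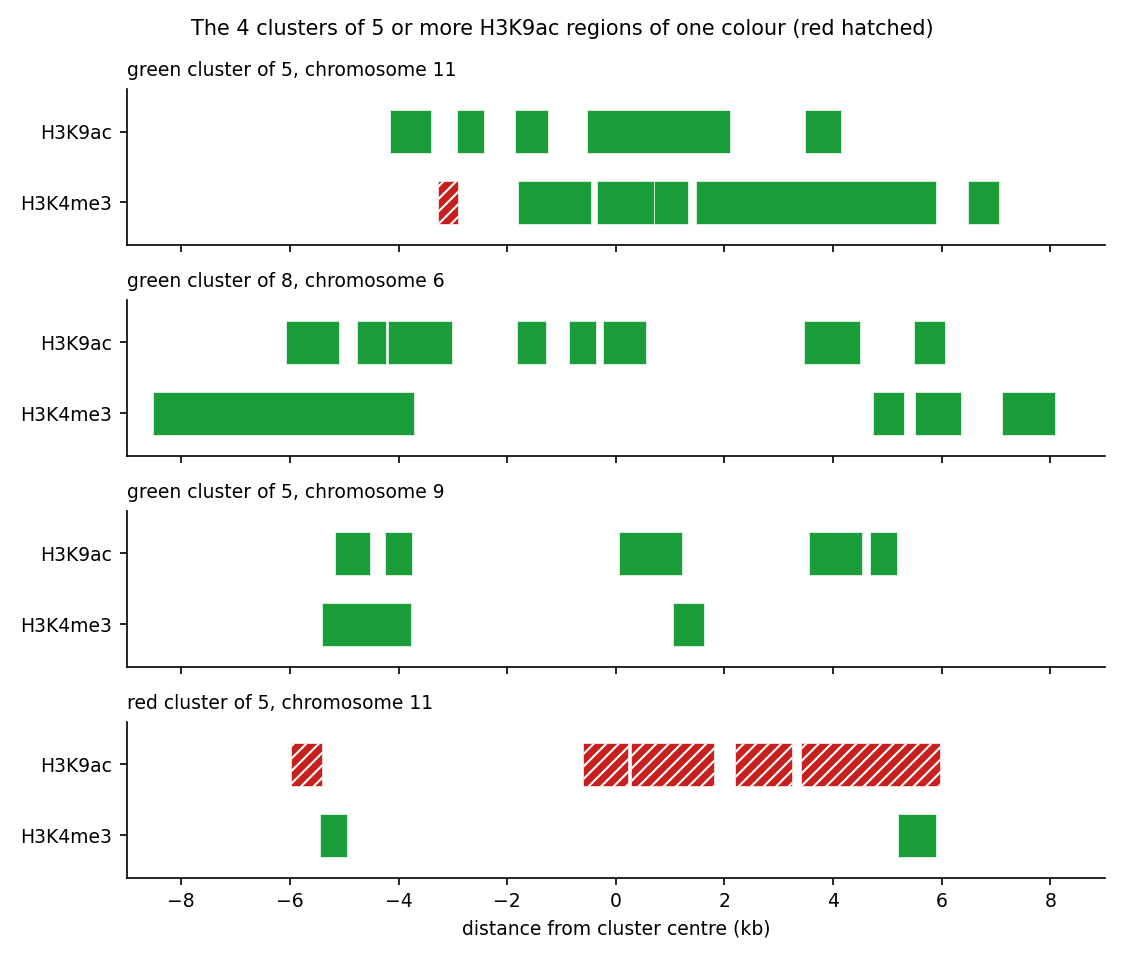
The 4 clusters of 5 or more H3K9ac regions of a single colour, with the H3K4me3 regions around them, drawn to scale as distance from the cluster centre in kb (red regions hatched). The 3 green clusters have green H3K4me3 over part of their regions, and the red cluster has green H3K4me3 only at its ends, sharing 50 and 700 bp.

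Most H3K9ac regions lay on a region that was also listed for H3K4me3. Of the 1878 regions, 1291 shared at least 1 bp with an H3K4me3 region (68.7%, 66.6 to 70.8). By bases, 45.8% of the H3K9ac total was shared with H3K4me3, whose regions cover 0.680% of the 1461.5 Mb spanned by the lists on these chromosomes. The share was higher for green than for red H3K9ac, at 712 of 952 (74.8%, 71.9 to 77.5) against 579 of 926 (62.5%, 59.3 to 65.7). The green share was the higher one on 10 of the 11 chromosomes. On chromosome 7 it was 86.2% against 56.4%, and on chromosome 17, the exception, 65.6% against 71.6%.

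Many of the regions that shared no base lay just beside an H3K4me3 region. Of the 587 without a shared base, 247 (42.1%, 38.0 to 46.2) were at most 500 bp from one, and 22 of these abutted it. Counting these, 86.4% of green and 77.2% of red H3K9ac regions had H3K4me3 at or within 500 bp. At 50 kb the shares were 96.8% and 96.7%, which leaves 61 regions, 30 green and 31 red, farther away. The part of the span within 50 kb of an H3K4me3 region is not given here, so these last shares have no background beside them. The median distance of those that shared no base was 0.663 kb (0.450 to 1.48) for green and 1.45 kb (0.800 to 2.67) for red.

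**Figure D4:**
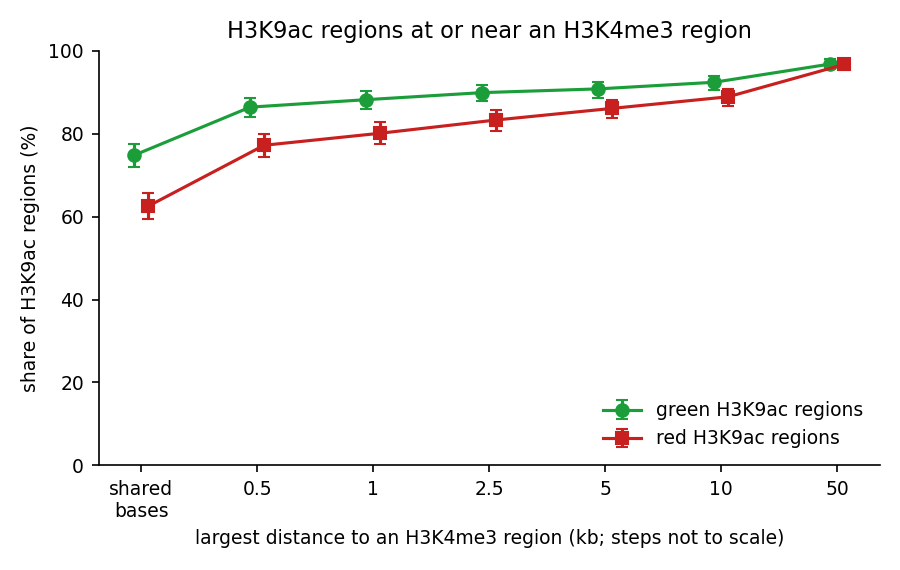
Share of green and red H3K9ac regions (percent, with 95% Clopper-Pearson intervals) that share bases with an H3K4me3 region or lie within the given distance of one in kb. The green share starts at 74.8% and the red share at 62.5%, and they are 96.8% and 96.7% at 50 kb.

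The mix of H3K4me3 colours was nearly the same under green and red H3K9ac. Among green H3K9ac regions 422 met only green H3K4me3, 250 only red, 40 met both and 240 none. Among red ones 329 met only green, 194 only red, 56 both and 347 none. Of those meeting a single colour, green H3K4me3 made up 62.8% (59.0 to 66.5) under green H3K9ac and 62.9% (58.6 to 67.1) under red. Both values were above the green share of all H3K4me3 regions on these chromosomes, which was 48.7% of regions and 53.5% of bases. The colours were the same in 616 of 1195 cases (51.5%, 48.7 to 54.4). Among regions no narrower than the median width of their list the likeness was weaker, with green H3K4me3 at 75% (69.5 to 80.0) under green and 66.8% (59.7 to 73.4) under red H3K9ac, and the same colour in 57.9% (53.3 to 62.4). Green H3K4me3 regions that met H3K9ac were broader (median 875 bp, 860 regions) than those that did not (700 bp, 5660 regions). For red H3K4me3 the medians were 675 bp (535 regions) and 625 bp (6322 regions). Choosing H3K4me3 regions by a shared base favours broader ones, so a larger median among those that met H3K9ac is partly built in.

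Broad green regions met H3K4me3 most often. Green H3K9ac regions met H3K4me3 at shares that went up with width, from 69.5% (64.9 to 73.9) under 600 bp to 74.2% at 600 to 775 bp, 83.7% at 800 to 975 bp and 93.2% (83.5 to 98.1) at 1000 bp or more. Red H3K9ac regions stayed between 60.3% and 66.3% in the same classes. A broader region has more bases with which to meet another, in either colour. Among the broadest green regions the H3K4me3 was also more often green, in 38 of 49 meeting a single colour (77.6%, 63.4 to 88.2), against 28 of 48 (58.3%, 43.2 to 72.4) for red. These intervals overlap. At 1500 bp or more all 13 green regions met H3K4me3, and the 11 of them that met a single colour met green.

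**Figure D5:**
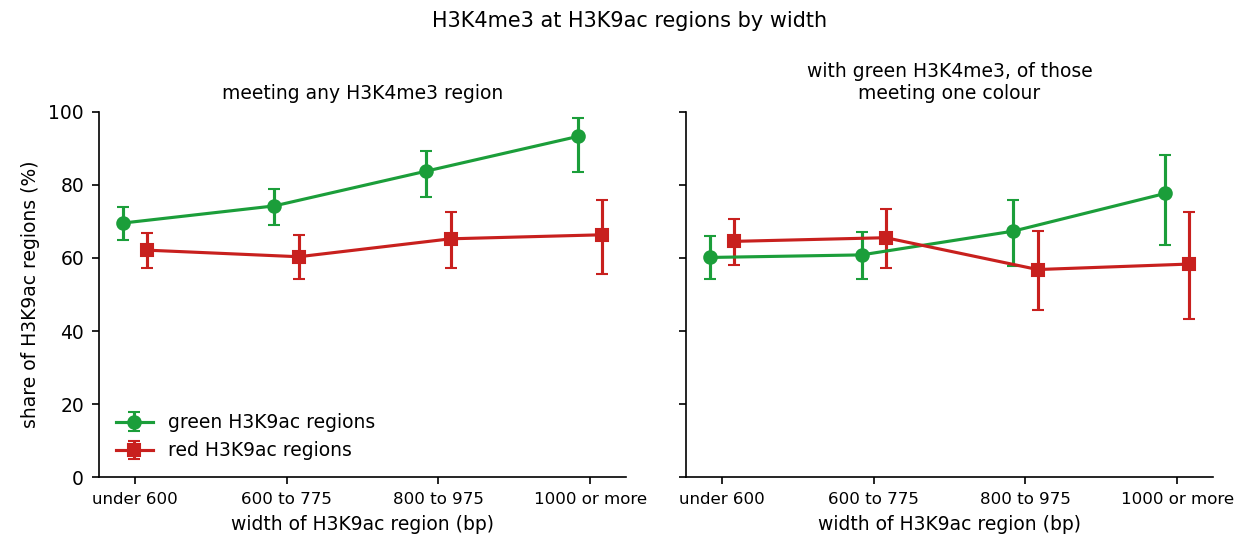
Share of H3K9ac regions meeting any H3K4me3 region (left) and, of those meeting a single colour of H3K4me3, the share meeting green (right), in percent with 95% Clopper-Pearson intervals, by width class in bp. Green H3K9ac goes from 69.5% to 93.2% on the left, and red lies between 60.3% and 66.3%.

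How the marks lay on each other differed with colour. For H3K9ac regions with a single H3K4me3 partner, the centres were 337.5 bp apart in the median where both were green and 287.5 bp where both were red. For green H3K9ac with red H3K4me3 (247 pairs) the offset was 212.5 bp, and for red H3K9ac with green H3K4me3 (312 pairs) it was 312.5 bp. Partial overlap at an end was the usual arrangement, in 54.3% of green with green and 71.3% of red with red pairs. In the mixed pairs it was 62.8% for green H3K9ac with red H3K4me3 and 73.7% for the reverse. A green H3K9ac region lay wholly inside its green H3K4me3 partner in 155 of 385 cases (40.3%), and a red one inside its red partner in 25 of 188 (13.3%). The inside share was 21.5% for green H3K9ac with red H3K4me3 and 21.2% for the reverse. The median width of the H3K4me3 partners was 1100 bp for green with green and 687.5 bp for red with red. For green H3K9ac with red H3K4me3 it was 675 bp, and for the reverse 825 bp. The median covered part of the H3K9ac region was 85.7% for green with green and 50% for red with red. In the mixed pairs it was 64% and 66.7%, in the same order.

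The 587 H3K9ac regions off H3K4me3 had median widths of 575 bp (550 to 600) in green and 625 bp (575 to 650) in red. The broadest red ones without a shared base were the regions of 2600 and 2450 bp named above, 100 and 175 bp from an H3K4me3 region. They were followed by 1925 bp at chr1:167778426-167780350, which was 57775 bp away from H3K4me3, by 1925 bp at chr4:132853576-132855500 and by 1900 bp at chr19:10857651-10859550. Green regions off H3K4me3 were narrower at the top. The broadest was 1200 bp at chr11:82892126-82893325, 10550 bp from H3K4me3, followed by 1100 bp at chr4:86221601-86222700 and 1025 bp at chr6:41505926-41506950. The last of these belongs to the cluster of 8 on chromosome 6.

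Few H3K9ac regions met H3K27me3, and nearly all of those were green. There were 27 (1.44%, 0.950 to 2.08), 25 of them green (2.63% of green regions, 1.71 to 3.85) and 2 red (0.216% of red regions, 0.0262 to 0.778). By bases, 1.34% of the H3K9ac total was shared with H3K27me3, which covers 0.842% of the span. With these 27 included, 31 of the 41 regions at or within 500 bp of H3K27me3 were green (75.6%). At or within 1 kb, again with the 27 included, 34 of 49 were green (69.4%). The regions that only lay near H3K27me3 were therefore less often green than those that met it. Of the 25 green regions that met H3K27me3, 24 met a red one, and 19 of these also met H3K4me3. The exception, at chr9:123843951-123844550, met green H3K27me3 over 325 bp. The 2 red H3K9ac regions, each 600 bp wide, lay at chr1:90159451-90160050 and chr4:48058001-48058600, and both met red H3K27me3. No red H3K9ac region of 926 met green H3K27me3. The colour mix of all H3K27me3 regions on these chromosomes is not given here. Whether these colour pairings depart from that mix therefore cannot be judged.

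The broadest green H3K9ac regions on H3K27me3 were the one on chromosome 9 at 69606701, already named, and 1825 bp at chr11:45869476-45871300, which lay wholly on green H3K4me3 and shared 1625 bp with red H3K27me3. Next came 1175 bp at chr9:96917951-96919125, entirely within red H3K27me3. At 975 bp each, chr1:59819476-59820450 met no H3K4me3 and chr9:44850351-44851325 shared 950 bp with red H3K27me3. The meeting of green H3K9ac with red H3K27me3 thus rests on 24 regions, and its direction in T-ALL cannot be read from the colours.

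Notch1 peaks were met by similar shares of green and red H3K9ac regions, with overlapping intervals. The counts were 18 green (1.89%, 1.12 to 2.97) and 21 red regions (2.27%, 1.41 to 3.45), 39 in all (2.08%). By bases, peaks lay on 1.17% of the H3K9ac total and on 0.438% of the span. The share of all regions was 0.733% among regions and peaks no narrower than their median width, and 3.83% with a peak within 1 kb. For H3K4me3 on the same chromosomes the shares were 0.997% of green and 16.9% of red regions. At a distance the H3K9ac colours differed. Within 10 kb of a Notch1 peak stood 143 green (15.0%, 12.8 to 17.5) and 239 red regions (25.8%, 23.0 to 28.8), and within 50 kb 41.0% of green and 59.6% of red regions. The share of the span, or of H3K4me3 regions, within these distances of a peak is not given here. The values therefore compare the colours only and do not show whether either is closer to peaks than the span at large. The part of the chromosomes' uneven density in this difference was not tested.

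The broadest regions with a Notch1 peak, after those on chromosomes 9, 4 and 11 already named, were both red and both met green H3K4me3. They were 1775 bp at chr4:134478951-134480725, with 500 bp shared with the peak, and 1725 bp at chr11:58767876-58769600, with 600 bp shared. Only 2 H3K9ac regions met all of H3K4me3, H3K27me3 and Notch1, and both were green with green H3K4me3 and red H3K27me3. The first was the region of 2725 bp on chromosome 9. The second, 800 bp at chr16:30066326-30067125, lies in the window on which the deposited lists open, chr16:30061173-30072152. It was wholly covered by red H3K27me3 and shared 500 bp with green H3K4me3 and 450 bp with the Notch1 peak. The other H3K9ac region in that window, at 30065476 to 30066200, was green, 725 bp wide, and wholly covered by both green H3K4me3 and red H3K27me3.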

How the data were processed

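Per the labels' protocols, single-end reads of 36 bp (34 bp after processing) came from libraries made with 5 to 10 ng of DNA. Alignment used BWA and the builds NCBIM37 and mm9, per the submitters' processing notes. For the region caller, its thresholds, the inputs and the merging of replicates, these details are not stated in any label or file header. The authors deposited BED lists whose score column is 1000 in every row, and whose starts and ends, deposited as positions on mm9, are multiples of 25 bp. Starts were converted to 1-based positions.

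The members and lists were chosen with earlier results of these data known. Regions meet when they share 1 bp or more. Clusters join regions of a colour at most 5 kb apart. Named are the 5 broadest regions of each colour, overall and without H3K4me3, the 5 broadest with H3K27me3 or Notch1, clusters of 5 or more, and the display window. Clusters of 4, runs of a colour and width classes were chosen after their values were seen, as were the exceptions named at small counts. The planned gene lists were not used. Shares carry 95% Clopper-Pearson intervals (scipy 1.17.1) and medians order-statistic intervals. Overlaps were checked on simulated lists and against bedtools 2.31.1. The fits planned for values per library were not made, because the lists hold none.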

Additional observations from a re-analysis of the deposited data

How the results depend on the processing

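Of 103 alternatives tried on 16 values, 75 stayed within the 95% interval of the value reported, or within 1.5 times it for counts of clusters. The 75 include every value with a chromosome left out and every value without regions under 500 bp. Those alternatives keep most of the same regions, so the tally does not measure how firm the values are. Restricting each list to regions no narrower than its median width gave 52.3% of H3K9ac regions meeting H3K4me3 (60.2% of green, 44.2% of red) and 0.733% meeting Notch1. It gave a same-colour share with H3K4me3 of 57.9%, green H3K4me3 under 75% of green and 66.8% of red H3K9ac, 100% green among those on H3K27me3 (14 regions), and 95.2% of neighbours within 1 kb alike. It leaves fewer regions by construction. With 50% of the region covered, 47.6% met H3K4me3 (55.5% of green, 39.4% of red) and 1.12% Notch1. Within 500 bp, 81.9% met H3K4me3 (86.4% and 77.2%), 2.18% H3K27me3 (75.6% of them green) and 3.19% Notch1. Within 1 kb these were 84.2% (88.2% and 80.1%), 2.61% (69.4% green) and 3.83%, and green H3K4me3 made up 70.0% under green and 69.0% under red H3K9ac. Mean widths were 681.9 bp for green and 712.6 bp for red. Green H3K9ac met H3K4me3 at a higher share than red under every overlap, width, merging and cluster setting run. Leaving out each chromosome in turn moved the share meeting H3K4me3 from 68.3% to 68.9%, the same-colour share from 50.7% to 52.4% and the green share of the list from 49.4% to 52.4%. Added after seeing the data were counting clusters once, leaving out regions under 500 bp, every alternative for neighbours (the 95.2% included), and leaving out chromosomes for all but the 3 values just given. No paired analysis was possible because each list combines its libraries, and no replicate could be left out. Promoter windows were not run.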
